A study of Mus musculus with 22 samples.

Results

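The chemokine family and its receptors were followed through the distal colon of mice with and without spontaneous colitis. Members were the rows of the count table whose gene symbol begins with a chemokine stem (Ccl, Cxcl, Cx3cl, Xcl), a chemokine receptor stem (Ccr, Cxcr, Cx3cr, Xcr) or the atypical receptor stem (Ackr) followed by a number, which gave 65 of 46078 rows. They comprised 40 ligand rows, 19 signalling receptors, 4 atypical receptors and the 2 rows of Ccl19-ps1 and Ccl19-ps3, under 64 symbols, because Ccl27a has 2 rows. Of these, 6 rows had no count in any of the 22 libraries (Ccl21b, Ccl21c, Ccl27b, the second Ccl27a row, Ccl19-ps1 and Ccl19-ps3). They are taken to be near-identical copies of other members, which was not measured here, and 2 of them (Ccl21c and the second Ccl27a row) lie outside the chromosomes. How the counting treated reads that match several copies was not stated. In all, 51 members had enough counts for a test in at least 1 comparison and 14 had not.

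Winnie mice carry a missense mutation in Muc2, the gene of the main secreted intestinal mucin, which leads to faulty mucin in goblet cells and to colitis without any added agent. Distal colon RNA was sequenced from 8 C57BL/6 mice aged 14 weeks (4 male, 4 female), from 7 Winnie mice aged 14 weeks (3 male, 4 female, labelled inflamed) and from 7 Winnie mice with rectal prolapse aged 18 weeks (4 male, 3 female, labelled severely inflamed, called Winnie-Prolapse here). Prolapse and the older age occur only together, so their contributions cannot be told apart. Values are given as CPM, a gene's counts per 1000000 counts of its library, and libraries held 24817527 to 36344372 counts, so that 3 counts correspond to 0.0825 to 0.121 CPM.

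Chemokines are small secreted proteins that guide leukocytes along a gradient, and they act on 7-transmembrane receptors that signal through inhibitory G proteins. Inflammatory chemokines are induced in epithelium, stroma and macrophages by microbial products and cytokines and draw neutrophils, monocytes and effector T cells, whereas homeostatic chemokines place lymphocytes in mucosa and lymphoid tissue at all times. Atypical receptors bind chemokines without G protein signalling and take them up or transport them.

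The tissue label was compared with marker genes. Summed colon epithelial markers (8 genes) were at 13059 to 22216 CPM in C57BL/6 mice, 11160.5 to 17295 CPM in Winnie mice and 7607 to 14167 CPM in Winnie-Prolapse mice, so colon RNA was present in each library. Other tissue differed between groups: 5 smooth muscle markers summed to 5863 to 10503 CPM in C57BL/6 mice, 1771 to 6318 CPM in Winnie mice and 1143 to 2777 CPM in Winnie-Prolapse mice, and all 5 were lower in both Winnie groups than in C57BL/6 at adjusted p under 0.05 and at least 1.5-fold. In Winnie-Prolapse 4 of 4 tested markers of squamous epithelium were higher than in C57BL/6, of which Krt5 and Krt6b entered the test only through Winnie-Prolapse. So were 5 of 5 tested mammary gland markers, and 5 of 6 were higher than in Winnie. The mammary gland list (8 genes, most of them milk proteins) summed to 189809 CPM in Winnie-Prolapse replicate 6 and to 3.46 to 59.4 CPM in the other 6 libraries of the group, against 1.96 to 25.2 CPM in C57BL/6 and 2.47 to 9.94 CPM in Winnie. CPM are shares of a library's counts, so in Winnie-Prolapse replicate 6 these transcripts lower the CPM of every other gene. In bulk RNA, fewer cells of a type and less RNA per cell cannot be told apart.

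In C57BL/6 colon the ligand pool was dominated by 3 genes. Ccl6 (a macrophage CC chemokine found in rodents), Ccl28 (a mucosal epithelial chemokine) and Cx3cl1 (the membrane-bound fractalkine) together made 77.4% ± 3.41 (SD, n = 8) of the summed ligand CPM. Per kilobase of annotated exon, mean levels in C57BL/6 were 124 CPM for Ccl6, 43.4 for Cx3cl1, 36.4 for Ccl28, 35.1 for Ccl21a and 13.4 for Cxcl13. The same 3 ligands made 69.8% ± 8.51 of the pool in Winnie (n = 7) and 45.3% ± 14.4 in Winnie-Prolapse (n = 7). The sum over all ligands was 736 ± 115 CPM in C57BL/6 mice, 863 ± 122 in Winnie mice and 1219 ± 305 with prolapse. Signalling receptors summed to 33.9 ± 18.5, 64.2 ± 23.1 and 121 ± 58.4 CPM in the same order. In Winnie-Prolapse the order per kilobase was Ccl6 at 123 CPM, Ccl21a at 57.1, then Cxcl9 at 44.0, Ccl8 at 42.7 and Cxcl5 at 42.3, the last 3 of which differed by less than the spread between their libraries.

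Each pair of groups was compared by the edgeR quasi-likelihood test on counts, with adjustment over all genes tested. A gene passed the strict limit at adjusted p under 0.001 and at least 1.5-fold, as in the methods of the study, and the looser limit at adjusted p under 0.05 and at least 1.5-fold. "Higher", "rose" and "fell" below refer to the looser limit unless the strict one is named. Some such calls were lost in fits that left out 1 library. For members given with their values, the libraries whose absence lost the call are named, or the number of fits that held it is given. That number stands with the library whose absence gave the highest adjusted p.

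In Winnie-Prolapse against C57BL/6, 22 of 50 tested members were higher at the strict limit (44%), where 9.84% of all tested genes were higher, and 1 member was lower, where 8.47% of all were. At the looser limit 35 members were higher (70%, against 16.7% of all genes) and 2 were lower (4%, against 17.7%). The median log2 fold change was 1.41 over the members and -0.0107 over all genes tested. For 21 members (42%) every Winnie-Prolapse library lay above every C57BL/6 library, which held for 6.5% of all tested genes. The 22, the 35, the 21 and the median include Ccl3, Ccl4, Cxcl2 and Cxcl3. These passed the count filter only with Winnie-Prolapse in the comparison, where they are high, so their calls and lack of overlap were bound up with the filter. Both the Winnie and C57BL/6 libraries enter other comparisons below, so these comparisons are not independent of each other.

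In Winnie against C57BL/6, none of 46 tested members passed the strict limit by edgeR, where 0.0925% of all genes did, although 27 had an unadjusted p under 0.05 (39.9% of all genes did) and DESeq2 placed 14 of 52 higher past that limit (3.98% of all genes). At the looser limit 21 members were higher (45.7%, against 7.42% of all genes) and 1 was lower (2.17%, against 8.53%). The median log2 fold change was 0.76 against -0.00679 over all genes. Only Cxcl11 had groups that did not overlap (2.17% of members, against 0.463% of all genes). Winnie replicate 5 had the lowest value of its group for 16 of the 21 higher members and lay within the C57BL/6 range for 17 of them. Without it, 7 of 46 tested members were higher at the strict limit, where 2.50% of all tested genes were, so more genes passed in general.

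In Winnie-Prolapse against Winnie, none of 51 tested members and 0% of all genes passed the strict limit by edgeR. An unadjusted p under 0.05 was found for 27 members (27.8% of all genes), and DESeq2 placed 12 of 56 higher past the strict limit (2.63% of all genes). At the looser limit 17 members were higher (33.3%, against 4.27% of all genes) and none lower (against 2.72%). Median log2 fold changes were 0.71 over the members and 0.00746 over all genes. Only Cxcl10 and Ccl3 had groups that did not overlap (3.92% of members, against 0.411% of all genes). Winnie-Prolapse replicate 4 had the highest value of its group for 13 of the 17 and without it 6 members were higher. The share of all genes in that fit is not given here, so no result about the members is drawn from the 6. The 17 and the median include Ccl3, Ccl4, Cxcl2 and Cxcl3, which passed the count filter only with Winnie-Prolapse in the comparison. They are high there, so their calls, and the lack of overlap of Ccl3, were bound up with the filter. Cxcr2, which the median includes, passed the count filter only in this comparison.

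**Figure D1:**
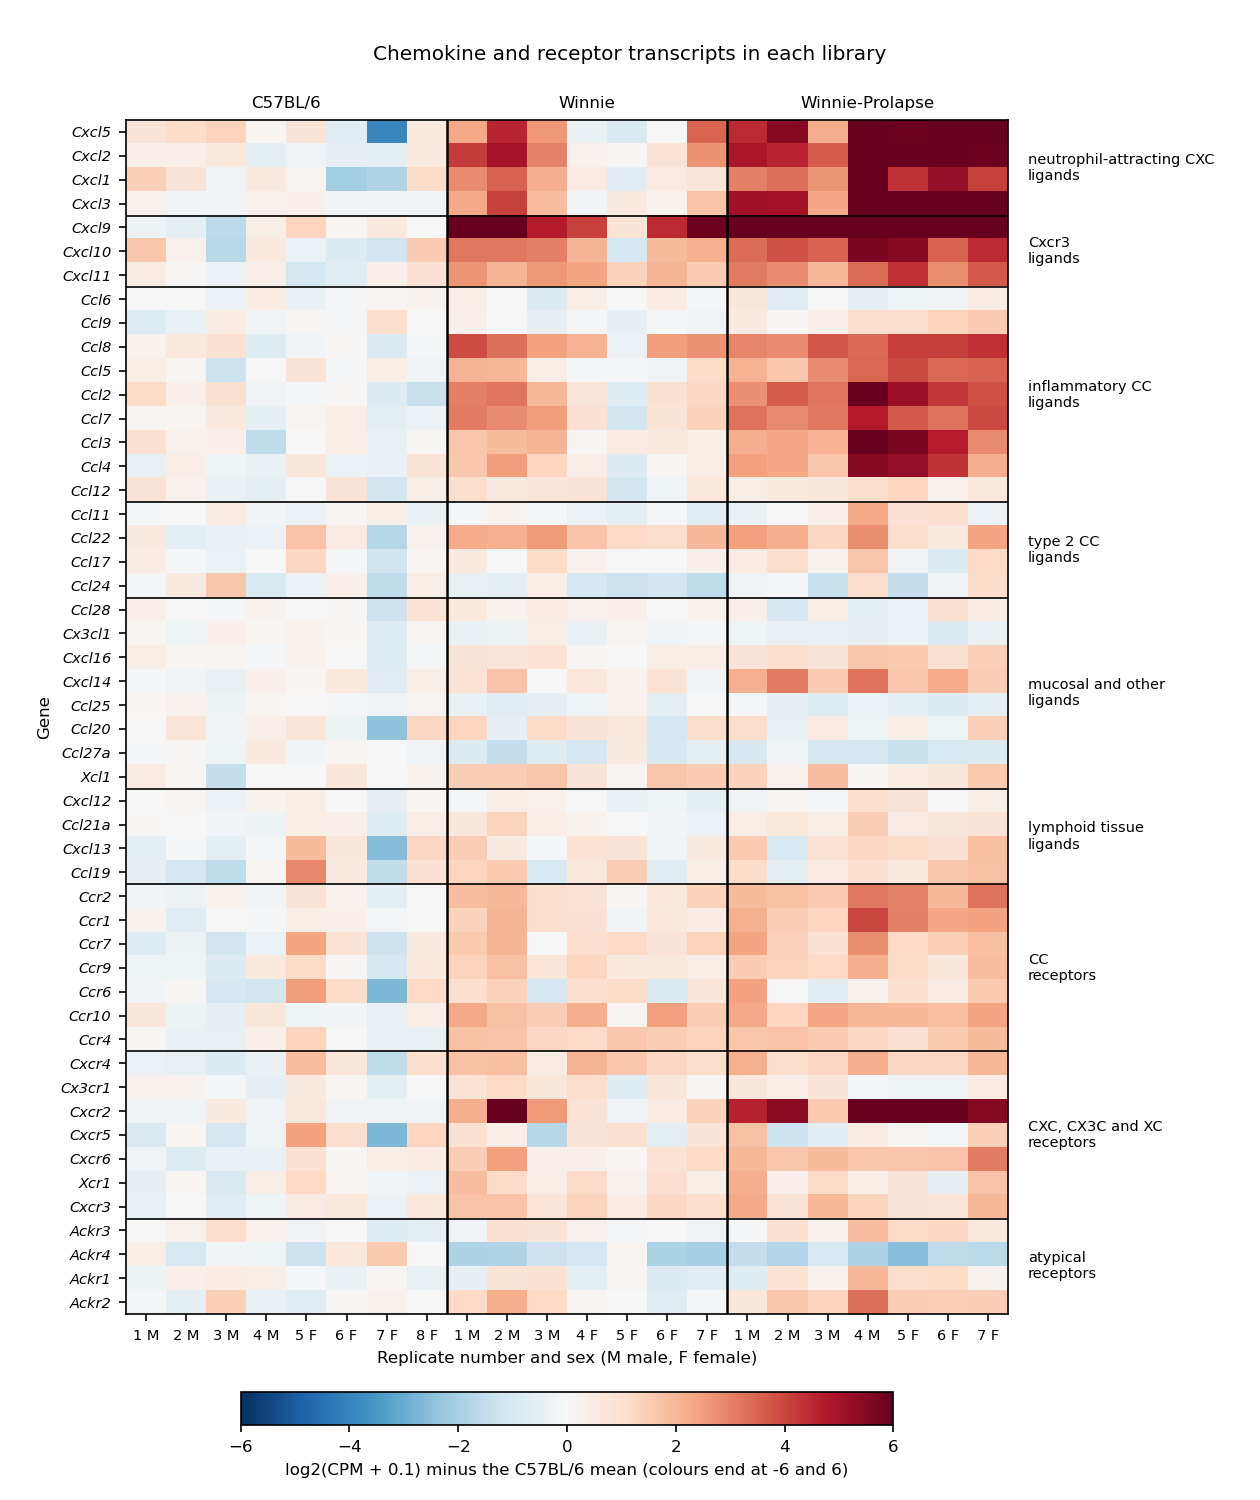
Each of the 50 rows is 1 of the 51 members tested in any comparison and each column 1 of the 22 libraries, and colour is log2(CPM + 0.1) minus the C57BL/6 mean. Neutrophil-attracting ligands, Cxcr3 ligands and most inflammatory CC ligands were above the C57BL/6 mean in Winnie-Prolapse, whereas Ccl6, Ccl28 and Cx3cl1 stayed near it.

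The neutrophil-attracting CXC ligands Cxcl1, Cxcl2, Cxcl3 and Cxcl5, which act on Cxcr2, include the members with the highest log2 fold changes in Winnie-Prolapse (Cxcl3 and Cxcl2). Cxcl1 and Cxcl5 were tested in each comparison. Both rose past the strict limit in Winnie-Prolapse against C57BL/6 and at the looser limit against Winnie, and Cxcl5 rose in Winnie against C57BL/6. Cxcl2 and Cxcl3 entered the test only through Winnie-Prolapse, where they are high, so their calls were bound up with the filter. The counts over all members include them. The 4 genes lie with Cxcl15, which had at most 32 counts in any library, in a cluster on chromosome 5 at chr5:90759360-90905938 (GRCm38). Their promoters are printed because these genes lie together and moved together: 250 bases before to 50 bases after the annotated start, from RefSeq on GRCm38.p6, on the plus strand, at chr5:90890995-90891294 for Cxcl1, chr5:90903649-90903948 for Cxcl2 and chr5:90785851-90786150 for Cxcl3. No entry of the promoter table matched Cxcl5. Capitals mark matches to the NF-kappaB consensus.
Cxcl1: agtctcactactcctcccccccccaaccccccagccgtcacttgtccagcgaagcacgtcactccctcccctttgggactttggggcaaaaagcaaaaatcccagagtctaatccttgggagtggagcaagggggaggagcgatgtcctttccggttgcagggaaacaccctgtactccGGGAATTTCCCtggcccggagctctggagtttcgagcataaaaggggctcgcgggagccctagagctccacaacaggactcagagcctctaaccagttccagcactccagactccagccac
Cxcl2: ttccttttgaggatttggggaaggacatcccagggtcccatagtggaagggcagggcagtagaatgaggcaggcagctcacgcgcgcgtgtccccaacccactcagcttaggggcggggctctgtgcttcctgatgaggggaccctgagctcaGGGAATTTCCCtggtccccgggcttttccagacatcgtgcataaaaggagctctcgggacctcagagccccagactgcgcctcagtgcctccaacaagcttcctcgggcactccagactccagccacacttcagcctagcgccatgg
Cxcl3: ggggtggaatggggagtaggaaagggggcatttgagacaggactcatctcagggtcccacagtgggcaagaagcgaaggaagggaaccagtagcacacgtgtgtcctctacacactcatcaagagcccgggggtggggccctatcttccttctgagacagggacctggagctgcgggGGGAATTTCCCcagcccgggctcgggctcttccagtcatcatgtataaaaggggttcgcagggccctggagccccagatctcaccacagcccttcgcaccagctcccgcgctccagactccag

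Each of the 3 promoters held the run GGGAATTTCCC, in which 2 overlapping matches to the consensus fit. It lay 71 to 61 bases before the start in Cxcl1, 97 to 87 bases before it in Cxcl2 and 73 to 63 bases before it in Cxcl3. The promoter table held 46 of the 64 member symbols with 53 promoters, and 12 of the 53 (22.6%), each of another member, had a match to this consensus, against 8.46% of all 32851 promoters of the same length. A match was found for 5 of the 13 matched members that passed the strict limit upwards in Winnie-Prolapse and for 7 of the other 33. A match describes letters in the window and is not a measured site of binding.

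Cxcl1 (ENSMUSG00000029380) ranged from 0.0786 to 1.91 CPM in C57BL/6 (median 0.854), 0.361 to 8.39 CPM in Winnie (median 1.14) and 4.51 to 50.2 CPM in Winnie-Prolapse (median 12.4). Every Winnie-Prolapse library lay above every C57BL/6 library, and 3 of 7 Winnie libraries did. Its log2 fold change was 1.76 ± 0.65 (SE, adjusted p = 0.0577) in Winnie and 4.40 ± 0.64 (SE, adjusted p = 5.41e-05) in Winnie-Prolapse against C57BL/6 by edgeR. Cxcl5 (ENSMUSG00000029371), an epithelial chemokine of the same receptor, spanned 0 to 3.87 CPM in C57BL/6 (median 2.42), 0.755 to 37.4 CPM in Winnie (median 7.57) and 7.11 to 136 CPM in Winnie-Prolapse (median 93.3). Winnie and Winnie-Prolapse libraries overlapped, while Winnie-Prolapse and C57BL/6 libraries did not. The edgeR log2 fold change of Cxcl5 was 2.38 ± 0.79 (SE, adjusted p = 0.0367) in Winnie and 5.28 ± 0.64 (SE, adjusted p = 1.03e-05) in Winnie-Prolapse. In Winnie it was a call held in 7 of 15 fits that left out 1 library (adjusted p = 0.121 without Winnie replicate 2).

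Cxcl2 and Cxcl3, which macrophages and neutrophils also release, were nearly silent in C57BL/6. Cxcl2 (ENSMUSG00000058427) was at 0.0723 to 0.286 CPM in C57BL/6 (median 0.160), 0.164 to 7.56 CPM in Winnie (median 1.54) and 2.97 to 152 CPM in Winnie-Prolapse (median 14.7). All Winnie-Prolapse libraries exceeded all C57BL/6 libraries, its log2 fold change being 8.03 ± 0.92 (SE, adjusted p = 6.01e-06) by edgeR, or 7.36 without Winnie-Prolapse replicate 4. Cxcl3 (ENSMUSG00000029379) was at 0 to 0.0386 CPM in C57BL/6 (median 0), 0 to 1.86 CPM in Winnie (median 0.268) and 0.454 to 28.4 CPM in Winnie-Prolapse (median 10.2). It had 3 counts over all 8 C57BL/6 libraries and 2175 over the 7 Winnie-Prolapse libraries, a ratio of 781 after scaling to library totals with a 95% counting interval of 267 to 3789. That interval covers counting error only and not the spread between mice. Cxcl3 in Winnie-Prolapse against Winnie stood at a log2 change of 4.65 ± 0.93 (SE, adjusted p = 0.0165), and 5.78 without Winnie replicate 2, which was the highest Winnie library. Cxcl1 and Cxcl2 had 2.65 ± 0.70 (SE, adjusted p = 0.0333) and 4.22 ± 1.02 (SE, adjusted p = 0.0253) in that comparison by edgeR. For Cxcl1 this was a call held in 6 of 14 fits that left out 1 library (adjusted p = 0.0743 without Winnie-Prolapse replicate 4), and for Cxcl2 a call held in 9 of 14 fits that left out 1 library (adjusted p = 0.0546 without Winnie replicate 4). For Cxcl5 the change between the Winnie groups, 2.90 ± 0.81, was a call held in 3 of 14 fits that left out 1 library (adjusted p = 0.0753 without Winnie-Prolapse replicate 4).

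Their receptor Cxcr2 (ENSMUSG00000026180) went from 4 counts in all C57BL/6 libraries together to 270 in Winnie and 3494 in Winnie-Prolapse. Winnie replicate 2 held 229 of the 270, and without it the Winnie mean fell from 1.24 to 0.225 CPM. Per library it was at 0 to 0.0772 CPM in C57BL/6 (median 0), 0 to 7.34 CPM in Winnie (median 0.201) and 0.242 to 72.8 CPM in Winnie-Prolapse (median 5.15). The Winnie-Prolapse total was 941 times that of C57BL/6 after the same scaling (95% counting interval 367 to 3455). The change against Winnie, 3.75 ± 1.22 (SE, adjusted p = 0.0665) on the log2 scale, did not pass the looser limit by edgeR, and Winnie-Prolapse replicate 4 alone held 2202 of the 3494 counts. Cxcr1 stayed at or below 23 counts in every library. Neutrophil markers moved with this group: 3 of 4 tested were higher in Winnie, and 6 of 7 in Winnie-Prolapse, than in C57BL/6, and 5 of 7 were higher in Winnie-Prolapse than in Winnie. Retnlg, S100a9 and Mmp8 entered the test only through Winnie-Prolapse, where they are high, so their calls were bound up with the filter. The 9 markers summed to 4.38 to 359.5 CPM in C57BL/6 mice, 317 to 652 CPM in Winnie mice and 532 to 1904 CPM in Winnie-Prolapse mice. Ly6g, which was not called in any comparison, was at 3.80 to 356 CPM in C57BL/6, 299.9 to 639 in Winnie and 302 to 872 in Winnie-Prolapse. The other 8 markers, a sum taken after the values were seen, were at 0.580 to 3.66 CPM in C57BL/6 mice, 1.87 to 123 in Winnie mice and 68.9 to 1392 in Winnie-Prolapse, highest in replicate 4. The granule marker Retnlg had a median of 0 CPM in C57BL/6. Their part in the chemokine values was not tested.

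**Figure D2:**
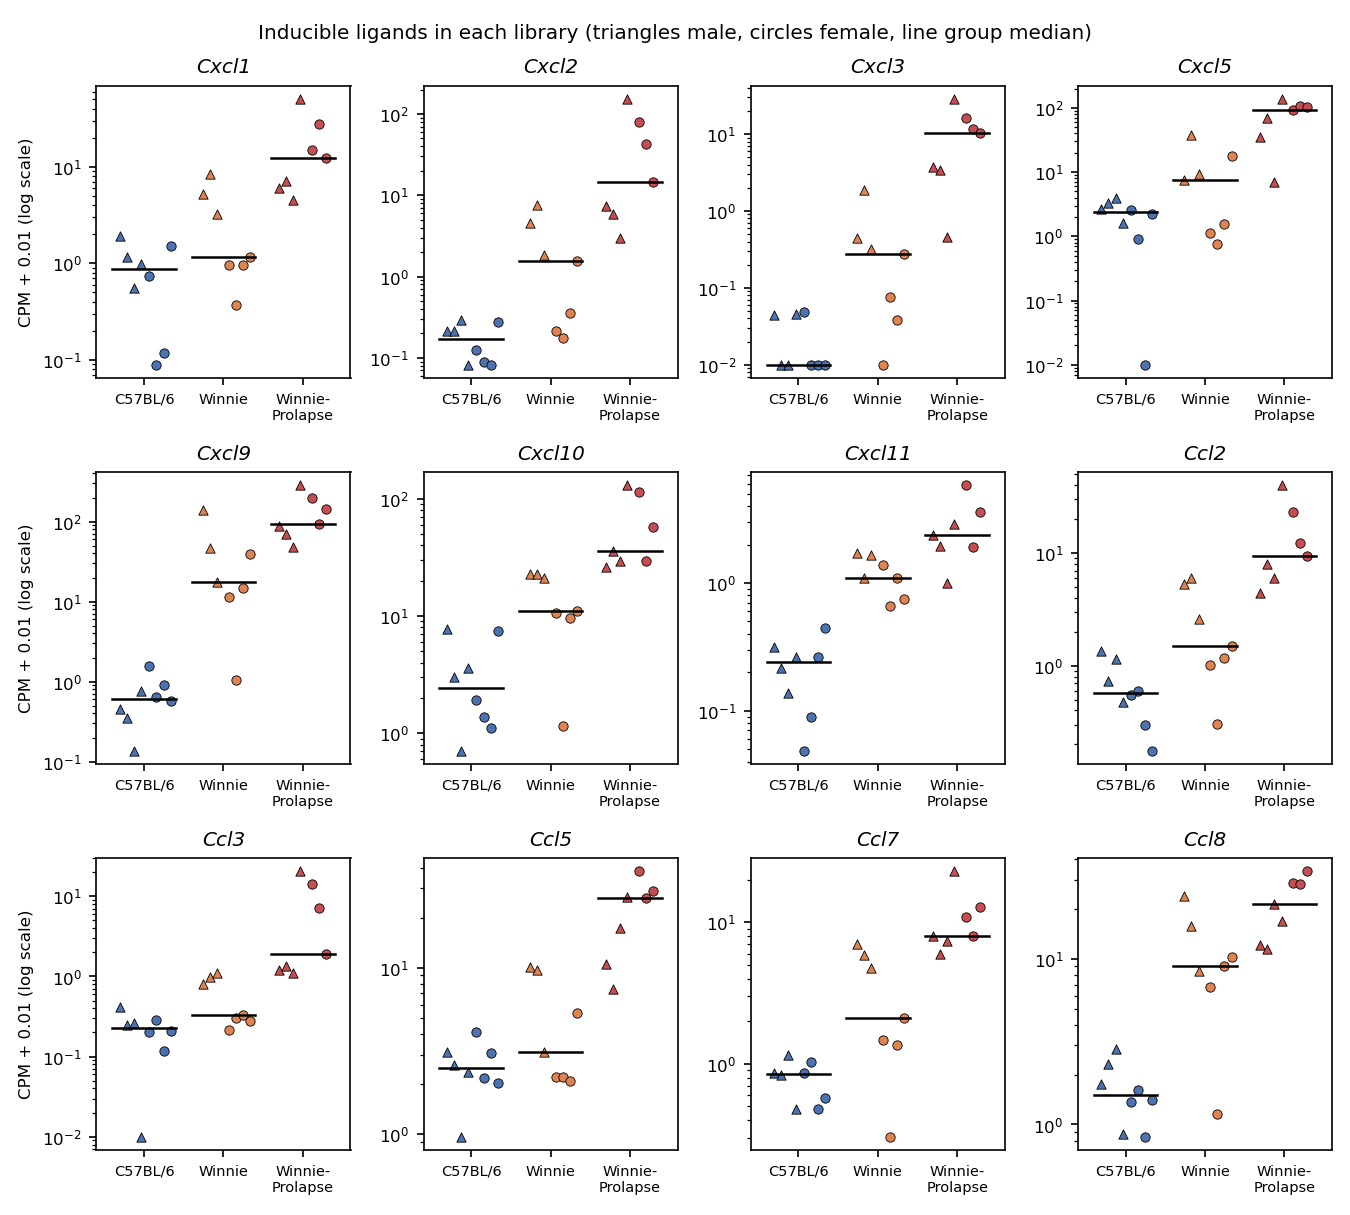
CPM on a log scale for 12 inflammatory ligands, 1 point per library with the group median as a line, in C57BL/6 (n = 8), Winnie (n = 7) and Winnie-Prolapse (n = 7). For the 12 ligands drawn, which were picked for display, the Winnie-Prolapse points lie above every C57BL/6 point. The same held for 6.5% of all tested genes, and the inflammatory ligands Ccl6, Ccl9 and Ccl12, not drawn, overlapped with C57BL/6. Ccl3, Cxcl2 and Cxcl3 passed the count filter only with Winnie-Prolapse in the comparison, so their lack of overlap was bound up with the filter.

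The ligands of Cxcr3, which are induced by interferon and draw effector T cells and NK cells, differed from C57BL/6 already in Winnie mice. Cxcl9, Cxcl10 and Cxcl11 all rose in Winnie against C57BL/6, and all 3 rose past the strict limit in Winnie-Prolapse. The deposited annotation types Cxcl11 as a polymorphic pseudogene, a class for genes that are coding in some strains and disrupted in the reference strain, so its values are transcript levels only. The 3 genes lie within a 44.1 kb stretch at chr5:92321347-92365485 (GRCm38). Promoters of Cxcl9 (chr5:92328030-92328329) and Cxcl10 (chr5:92348840-92349139), both on the minus strand, are printed as neighbours that rose together with different motifs in the window. In capitals are matches to NF-kappaB, to the interferon-stimulated response element (ISRE, GAAANNGAAA) and to AP-1 (TGANTCA).
Cxcl9: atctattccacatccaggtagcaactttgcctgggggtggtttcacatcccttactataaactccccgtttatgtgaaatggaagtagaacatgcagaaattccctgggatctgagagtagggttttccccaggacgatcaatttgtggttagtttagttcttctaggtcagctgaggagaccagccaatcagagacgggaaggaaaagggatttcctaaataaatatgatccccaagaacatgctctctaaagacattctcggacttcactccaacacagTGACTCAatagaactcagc
Cxcl10: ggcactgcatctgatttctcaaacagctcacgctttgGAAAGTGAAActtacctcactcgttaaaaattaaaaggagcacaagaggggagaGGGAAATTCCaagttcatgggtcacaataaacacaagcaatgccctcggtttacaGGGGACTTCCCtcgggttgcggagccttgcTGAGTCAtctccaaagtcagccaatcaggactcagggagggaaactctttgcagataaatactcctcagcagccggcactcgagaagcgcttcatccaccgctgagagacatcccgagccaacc

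In the Cxcl10 promoter the matches were an ISRE 213 to 204 bases before the start, NF-kappaB matches 159 to 150 and 104 to 94 bases before it, and AP-1 74 to 68 bases before it. Cxcl9 held only an AP-1 match, 31 to 37 bases after the start, and none of the other letters searched, including the GAS element TTCNNNGAA, was in its window. Both strands were searched. ISRE matches were present in 3 of the 53 member promoters (5.66%, those of Ccl19, Cxcl10 and Cxcl14), against 3.44% of all promoters. GAS matches were present in 4 (7.55%), against 8.30% of all promoters, and AP-1 matches in 10 (18.9%), against 7.81%.

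Cxcl9 (ENSMUSG00000029417) was at 0.127 to 1.54 CPM in C57BL/6 (median 0.596), 1.05 to 141 CPM in Winnie (median 17.7) and 48.5 to 285 CPM in Winnie-Prolapse (median 94.2). In Winnie, 6 of 7 libraries lay above all C57BL/6 libraries, and in Winnie-Prolapse all 7 did. Its edgeR log2 fold change was 5.98 ± 0.81 (SE, adjusted p = 0.00102) in Winnie, or 5.13 without replicate 1, and 7.71 ± 0.48 (SE, adjusted p = 1.87e-08) in Winnie-Prolapse, whereas between the Winnie groups it was 1.75 ± 0.71 (SE, adjusted p = 0.126) and did not pass. Cxcl10 (ENSMUSG00000034855) stood at 0.698 to 7.76 CPM in C57BL/6 (median 2.43), 1.15 to 22.7 CPM in Winnie (median 11.01) and 26.3 to 129.9 CPM in Winnie-Prolapse (median 35.8). In Winnie 6 of 7 libraries lay above all C57BL/6 libraries, and Winnie and Winnie-Prolapse did not overlap. Its log2 fold changes by edgeR were 2.14 ± 0.57 (SE, adjusted p = 0.0150) in Winnie against C57BL/6, 4.20 ± 0.55 (SE, adjusted p = 2.07e-05) in Winnie-Prolapse against C57BL/6 and 2.07 ± 0.52 (SE, adjusted p = 0.0290) between the Winnie groups, the last a call held in 9 of 14 fits that left out 1 library (adjusted p = 0.0640 without Winnie replicate 4). Cxcl11, the least abundant of the 3 per kilobase, was at 0.0386 to 0.431 CPM in C57BL/6 (median 0.229), 0.656 to 1.71 CPM in Winnie (median 1.09) and 0.998 to 5.82 CPM in Winnie-Prolapse (median 2.37). Every Winnie and Winnie-Prolapse library lay above every C57BL/6 library, with 2.53 ± 0.35 (SE, adjusted p = 0.00115) and 3.74 ± 0.41 (SE, adjusted p = 4.72e-06) by edgeR. Between the Winnie groups Cxcl11 changed by 1.21 ± 0.33, a call held in 5 of 14 fits that left out 1 library (adjusted p = 0.0807 without Winnie-Prolapse replicate 5). An antisense pseudogene, Gm2673, covers 41.7% of the Cxcl11 exons, and it had a mean of 0.0116 CPM.

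Cxcr3 itself rose in both Winnie groups against C57BL/6. It was at 0.286 to 0.828 CPM in C57BL/6 (median 0.438), 0.722 to 1.84 CPM in Winnie (median 1.32) and 0.886 to 2.78 CPM in Winnie-Prolapse (median 1.39), and 6 of 7 Winnie libraries lay above C57BL/6. By edgeR its log2 fold change was 1.39 ± 0.28 (SE, adjusted p = 0.00521) in Winnie and 1.72 ± 0.34 (SE, adjusted p = 5.78e-04) in Winnie-Prolapse, with 0.34 ± 0.33 between the Winnie groups. T cell markers moved with it: all 7 rose in each Winnie group against C57BL/6 and none between the Winnie groups, with sums of 6.03 to 21.6 CPM in C57BL/6 mice, 15.6 to 41.3 CPM in Winnie mice and 20.2 to 51.3 CPM in Winnie-Prolapse mice. NK and cytotoxic markers rose in 3 of 4 tested in Winnie and 4 of 4 in Winnie-Prolapse (0.730 to 2.43 CPM in C57BL/6 mice, 1.08 to 14.3 CPM in Winnie mice and 6.94 to 13.5 CPM in Winnie-Prolapse mice over 6 genes), for example Gzmb by 3.20 ± 0.62 and 4.002 ± 0.38 on the log2 scale. Whether T cell and NK cell content bears on these values was not tested.

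Of the 9 inflammatory CC ligands, 3 of 7 tested rose in Winnie, 8 of 9 in Winnie-Prolapse against C57BL/6 (6 of them past the strict limit) and 6 of 9 between the Winnie groups. The latter counts include Ccl3 and Ccl4, which entered the test only through Winnie-Prolapse. The monocyte chemoattractants Ccl2, Ccl7 and Ccl12 lie with Ccl8, Ccl11 and Ccl1 at chr11:82035571-82305690, and Ccl5, Ccl9, Ccl6, Ccl3 and Ccl4 at chr11:83525778-83664683 (both GRCm38). All 5 tested genes of the former cluster and 4 of 5 of the latter rose in Winnie-Prolapse against C57BL/6, where 16.7% of all tested genes rose. The 4 include Ccl3 and Ccl4, whose calls were bound up with the filter. In the former cluster the calls of Ccl11 and Ccl12 were lost in some fits that left out 1 library.

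Ccl2 (ENSMUSG00000035385), the main ligand of Ccr2, was at 0.166 to 1.33 CPM in C57BL/6 (median 0.565), 0.295 to 6.06 CPM in Winnie (median 1.47) and 4.41 to 40.0 CPM in Winnie-Prolapse (median 9.42). Winnie libraries spread across the C57BL/6 range and beyond it, while all Winnie-Prolapse libraries lay above. The edgeR log2 fold change was 2.001 ± 0.55 (SE, adjusted p = 0.0171) in Winnie, 4.52 ± 0.52 (SE, adjusted p = 6.53e-06) in Winnie-Prolapse and 2.52 ± 0.62 (SE, adjusted p = 0.0267) between them, the last a call held in 9 of 14 fits that left out 1 library (adjusted p = 0.0591 without Winnie replicate 4). Ccl7, which acts on Ccr1, Ccr2 and Ccr3, was at 0.470 to 1.14 CPM in C57BL/6 (median 0.835), 0.295 to 6.99 CPM in Winnie (median 2.11) and 5.95 to 22.9 CPM in Winnie-Prolapse (median 8.02). In 6 of 7 Winnie libraries it exceeded all C57BL/6 values, and in the remaining one it lay below all of them. Its changes by edgeR were 2.13 ± 0.48 (SE, adjusted p = 0.00790) and 3.86 ± 0.30 (SE, adjusted p = 1.93e-07) against C57BL/6. Between the Winnie groups the change of 1.74 ± 0.51 was a call held in 4 of 14 fits that left out 1 library (adjusted p = 0.101 without Winnie-Prolapse replicate 4). Ccl8, assigned here to the receptor Ccr8, was at 0.833 to 2.86 CPM in C57BL/6 (median 1.502), 1.15 to 23.9 CPM in Winnie (median 9.003) and 11.5 to 33.8 CPM in Winnie-Prolapse (median 21.5). Winnie replicate 5, at 1.15 CPM, was the single Winnie library inside the C57BL/6 range. Ccl8 rose by 2.81 ± 0.46 (SE, adjusted p = 0.00186) in Winnie and 3.86 ± 0.34 (SE, adjusted p = 5.32e-07) in Winnie-Prolapse by edgeR, and 1.06 ± 0.47 (SE, adjusted p = 0.155) between the Winnie groups did not pass. Ccl12, a rodent Ccr2 ligand, rose by only 0.73 ± 0.29 (SE, adjusted p = 0.0463) in Winnie-Prolapse against C57BL/6, a call held in 3 of 15 fits that left out 1 library (adjusted p = 0.105 without Winnie-Prolapse replicate 5).

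Ccl3, Ccl4 and Ccl5, which attract monocytes and T cells, rose in Winnie-Prolapse against both other groups. Ccl3 was at 0 to 0.410 CPM in C57BL/6 (median 0.219), 0.203 to 1.08 CPM in Winnie (median 0.316) and 1.09 to 20.5 CPM in Winnie-Prolapse (median 1.91). Its Winnie-Prolapse libraries lay above both other groups. The edgeR log2 fold change was 5.02 ± 0.76 (SE, adjusted p = 7.38e-05) against C57BL/6 and 3.59 ± 0.75 (SE, adjusted p = 0.0179) against Winnie. Ccl4 was at 0.0683 to 0.298 CPM in C57BL/6 (median 0.0869), 0.0328 to 1.22 CPM in Winnie (median 0.203) and 0.635 to 10.4 CPM in Winnie-Prolapse (median 1.18), and rose by 4.77 ± 0.69 (SE, adjusted p = 4.65e-05) and 3.25 ± 0.77 (SE, adjusted p = 0.0243) in the same comparisons, the second a call held in 11 of 14 fits that left out 1 library (adjusted p = 0.0554 without Winnie replicate 4). Ccl5, made by cytotoxic T cells and NK cells, was at 0.952 to 4.09 CPM in C57BL/6 (median 2.47), 2.07 to 10.1 CPM in Winnie (median 3.12) and 7.40 to 38.1 CPM in Winnie-Prolapse (median 26.2). Only 3 of 7 Winnie libraries lay above C57BL/6, where all 7 Winnie-Prolapse libraries did. Its edgeR change of 1.04 ± 0.38 (SE, adjusted p = 0.0562) in Winnie missed the looser limit, and it rose by 3.23 ± 0.36 (SE, adjusted p = 4.84e-06) and 2.19 ± 0.46 (SE, adjusted p = 0.0184) in Winnie-Prolapse.

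Ccl6 and Ccl9, both Ccr1 ligands of rodents and neighbours on chromosome 11, did not move alike. Ccl6 (ENSMUSG00000018927) was at 165 to 301 CPM in C57BL/6 (median 222), 129 to 301 CPM in Winnie (median 220.0) and 142 to 354 CPM in Winnie-Prolapse (median 192), with edgeR log2 fold changes of 0.17 ± 0.18, 0.09 ± 0.20 and -0.08 ± 0.25, none called. Ccl9 was at 6.36 to 20.9 CPM in C57BL/6 (median 10.2), 7.58 to 13.1 CPM in Winnie (median 10.1) and 11.3 to 31.0 CPM in Winnie-Prolapse (median 20.7). Winnie lay within the C57BL/6 range, and 6 of 7 Winnie-Prolapse libraries lay above all Winnie libraries. Ccl9 rose in Winnie-Prolapse by 0.94 ± 0.28 (SE, adjusted p = 0.0101) against C57BL/6 and 1.07 ± 0.25 (SE, adjusted p = 0.0229) against Winnie.

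Ccr1, a receptor of Ccl3 and Ccl5, and Ccr2, the receptor of Ccl2, rose in all 3 comparisons. Ccr1, carried by monocytes and neutrophils, was at 1.91 to 3.90 CPM in C57BL/6 (median 2.95), 2.59 to 12.4 CPM in Winnie (median 5.47) and 7.41 to 50.04 CPM in Winnie-Prolapse (median 15.4). Ccr2, which brings monocytes out of the marrow, was at 2.72 to 6.98 CPM in C57BL/6 (median 3.71), 4.13 to 15.7 CPM in Winnie (median 7.94) and 11.8 to 38.7 CPM in Winnie-Prolapse (median 15.5). In both genes all Winnie-Prolapse libraries exceeded C57BL/6, and Winnie libraries overlapped with each neighbour group. The edgeR log2 fold changes in Winnie and Winnie-Prolapse against C57BL/6 were 1.10 ± 0.26 (SE, adjusted p = 0.00946) and 2.72 ± 0.34 (SE, adjusted p = 1.24e-05) for Ccr1. For Ccr2 they were 1.27 ± 0.27 (SE, adjusted p = 0.00604) and 2.56 ± 0.29 (SE, adjusted p = 5.11e-06). Between the Winnie groups Ccr1 changed by 1.63 ± 0.41, a call held in 7 of 14 fits that left out 1 library (adjusted p = 0.0603 without Winnie replicate 4), and Ccr2 by 1.29 ± 0.34, held in 5 of 14 fits that left out 1 library (adjusted p = 0.0708 without Winnie replicate 4).

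Monocyte and macrophage markers moved with these genes, 4 of 8 higher in Winnie, 8 of 8 in Winnie-Prolapse against C57BL/6 and 3 of 8 between the Winnie groups. Their sums were 90.2 to 222 CPM in C57BL/6 mice, 160.5 to 357 CPM in Winnie mice and 264 to 717 CPM in Winnie-Prolapse mice, and their part was not tested.

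**Figure D3:**
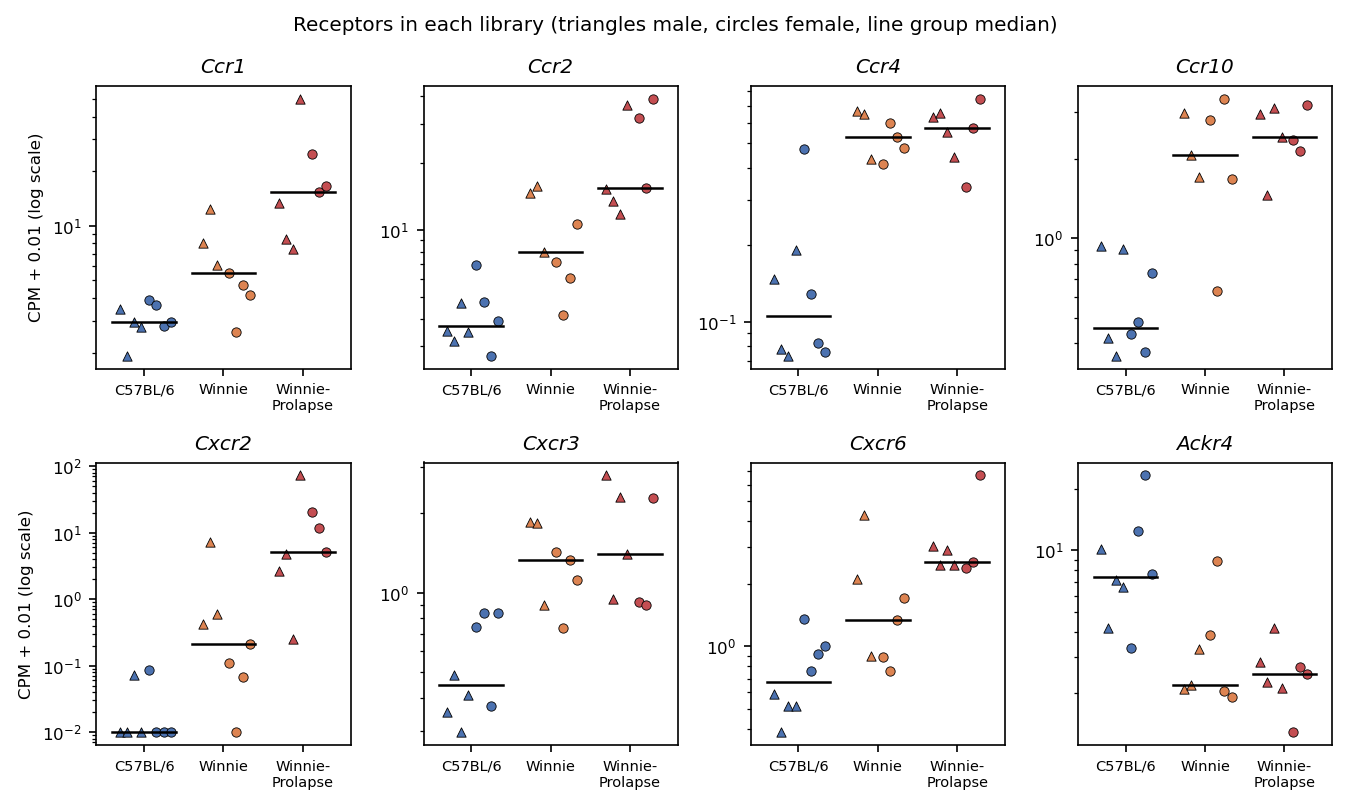
CPM on a log scale for Ccr1, Ccr2, Ccr4, Ccr10, Cxcr2, Cxcr3, Cxcr6 and Ackr4, 1 point per library with the group median as a line (8 C57BL/6, 7 Winnie, 7 Winnie-Prolapse). The medians of Ccr1 and Ccr2 rise from group to group, Ccr4, Ccr10 and Cxcr3 overlap between the Winnie groups, and Ackr4 lies below all C57BL/6 points in 5 Winnie and 6 Winnie-Prolapse libraries.

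Type 2 chemokines, which serve eosinophils, Th2 cells and regulatory T cells, gave a mixed picture. Ccl22, a dendritic cell ligand of Ccr4, was at 0.326 to 4.51 CPM in C57BL/6 (median 1.27), 2.76 to 8.10 CPM in Winnie (median 5.22) and 1.93 to 9.49 CPM in Winnie-Prolapse (median 6.30). In each Winnie group 4 of 7 libraries lay above all of C57BL/6. It rose by 1.74 ± 0.40 (SE, adjusted p = 0.00877) in Winnie and 1.80 ± 0.44 (SE, adjusted p = 0.00324) in Winnie-Prolapse by edgeR, with 0.07 ± 0.31 between the Winnie groups. Its receptor Ccr4, at only 2 to 24 counts per library, followed the same order: 0.0635 to 0.463 CPM in C57BL/6 (median 0.0952), 0.405 to 0.660 CPM in Winnie (median 0.518) and 0.327 to 0.736 CPM in Winnie-Prolapse (median 0.564). The edgeR changes of Ccr4 were 1.95 ± 0.36 (SE, adjusted p = 0.00348) and 2.01 ± 0.38 (SE, adjusted p = 4.35e-04), with 0.07 ± 0.21 between the Winnie groups.

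Ccl17, the other Ccr4 ligand and a neighbour of Ccl22 at chr8:94745590-94812036, was not called in any comparison, with log2 fold changes of 0.33 ± 0.32, 0.69 ± 0.39 and 0.37 ± 0.34. The eosinophil attractant Ccl11 (eotaxin) was at 4.27 to 7.90 CPM in C57BL/6 (median 5.57), 3.41 to 6.57 CPM in Winnie (median 5.15) and 4.20 to 27.8 CPM in Winnie-Prolapse (median 6.99) and rose in Winnie-Prolapse against C57BL/6 alone, by 0.88 ± 0.35 (SE, adjusted p = 0.0440) with edgeR. That was a call held in 6 of 15 fits that left out 1 library (adjusted p = 0.157 without Winnie-Prolapse replicate 4), and replicate 4 was the highest Winnie-Prolapse library. Ccl24, a further eotaxin, was not called (-1.03 ± 0.46 in Winnie). The eotaxin receptor Ccr3 had at most 3 counts in any library. Ccl1 had 1 count in all C57BL/6 libraries, 21 in Winnie and 76 in Winnie-Prolapse, the last a ratio of 81.9 to C57BL/6 after scaling (95% counting interval 14.3 to 3275). The test did not cover it. Its receptor Ccr8, to which Ccl8 is also assigned here, had at most 20 counts per library, and Ccl26 at most 1. Eosinophil markers were higher in 1 of 2 tested in Winnie and 2 of 3 in Winnie-Prolapse against C57BL/6 (0.381 to 4.13 CPM in C57BL/6 mice, 2.17 to 3.68 CPM in Winnie mice and 3.34 to 5.86 CPM in Winnie-Prolapse mice summed over 4 genes), and mast cell markers in 2 of 3 and 3 of 4 (1.16 to 3.4998 CPM in C57BL/6 mice, 2.002 to 7.62 CPM in Winnie mice and 7.43 to 13.9 CPM in Winnie-Prolapse mice over 7 genes). Il5ra and Mcpt4 of these lists entered the test only through Winnie-Prolapse. Their part was not tested.

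Among the mucosal and other ligands, those abundant in normal colon, Ccl28 and Cx3cl1, were not called in any comparison. Ccl28, which draws IgA plasma cells through Ccr10, was at 70.1 to 289 CPM in C57BL/6 (median 167), 166 to 249 CPM in Winnie (median 198) and 85.6 to 309 CPM in Winnie-Prolapse (median 204), with edgeR log2 fold changes of 0.29 ± 0.20, 0.20 ± 0.31 and -0.10 ± 0.28, none called. Its receptor Ccr10 did rise. It was at 0.349 to 0.923 CPM in C57BL/6 (median 0.448), 0.623 to 3.37 CPM in Winnie (median 2.05) and 1.45 to 3.20 CPM in Winnie-Prolapse (median 2.41). In Winnie 6 of 7, and in Winnie-Prolapse 7 of 7, libraries lay above all C57BL/6 libraries, with 2.02 ± 0.34 (SE, adjusted p = 0.00218) and 2.23 ± 0.27 (SE, adjusted p = 1.03e-05) by edgeR and 0.21 ± 0.32 between the Winnie groups. Plasma cell markers moved with Ccr10, 4 of 5 higher in each Winnie group against C57BL/6 and none between them, with sums of 248 to 630.1 CPM in C57BL/6 mice, 505 to 1509 CPM in Winnie mice and 1000.5 to 1792 CPM in Winnie-Prolapse mice. Their part was not tested.

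Cx3cl1 was at 99.6 to 207 CPM in C57BL/6 (median 183), 125 to 213 CPM in Winnie (median 146) and 91.99 to 139.6 CPM in Winnie-Prolapse (median 124). Its change of -0.40 ± 0.13 (SE, adjusted p = 0.0157) in Winnie-Prolapse was under 1.5-fold, and 5 of 7 Winnie-Prolapse libraries lay below all Winnie libraries. Its receptor Cx3cr1, a marker of resident gut macrophages, rose by 0.70 ± 0.24 (SE, adjusted p = 0.0440) in Winnie by edgeR, a call held in 3 of 15 fits that left out 1 library (adjusted p = 0.0960 without Winnie replicate 2), and was at 0.36 ± 0.21 in Winnie-Prolapse against C57BL/6, not called. Ccl20, the epithelial ligand of Ccr6, had 0.48 ± 0.42 and 0.32 ± 0.42 against C57BL/6, not called. Ccl25, the small-intestinal ligand of Ccr9, had -0.43 ± 0.12 (SE, adjusted p = 0.00857) in Winnie-Prolapse by edgeR, under 1.5-fold, while Ccr9 rose by 1.01 ± 0.32 (SE, adjusted p = 0.0330) in Winnie and 1.47 ± 0.31 (SE, adjusted p = 0.00113) in Winnie-Prolapse, the former a call held in 8 of 15 fits that left out 1 library (adjusted p = 0.0767 without Winnie replicate 2).

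Cxcl14, an epithelial and stromal chemokine, was at 4.27 to 9.87 CPM in C57BL/6 (median 6.66), 5.96 to 22.1 CPM in Winnie (median 10.3) and 18.4 to 64.9 CPM in Winnie-Prolapse (median 29.0). All Winnie-Prolapse libraries were above C57BL/6. It rose in each comparison by edgeR, by 0.74 ± 0.26 (SE, adjusted p = 0.0470) in Winnie, 2.38 ± 0.27 (SE, adjusted p = 5.18e-06) in Winnie-Prolapse and 1.64 ± 0.33 (SE, adjusted p = 0.0165) between them. Only the first was lost in any fit, being a call held in 4 of 15 fits that left out 1 library (adjusted p = 0.126 without Winnie replicate 2). Cxcl16, a membrane-bound ligand and scavenger receptor, was at 14.997 to 31.3 CPM in C57BL/6 (median 26.1), 24.97 to 43.2 CPM in Winnie (median 33.0) and 41.9 to 78.1 CPM in Winnie-Prolapse (median 49.99). Again no Winnie-Prolapse library overlapped with C57BL/6, with 1.25 ± 0.16 (SE, adjusted p = 1.43e-05) by edgeR. In Winnie its change of 0.54 ± 0.15 (SE, adjusted p = 0.0188) was under 1.5-fold. Cxcr6, the receptor for Cxcl16 on tissue T cells, rose by 1.27 ± 0.37 (SE, adjusted p = 0.0227) in Winnie and 2.20 ± 0.31 (SE, adjusted p = 4.01e-05) in Winnie-Prolapse, and the former call was lost without Winnie replicate 1 or replicate 2. Antisense Zmynd15 shares 18.3% of the Cxcl16 exons, at a mean of 3.90 CPM, and the strand setting of the counting was not stated.

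Xcl1, released by NK cells and CD8 T cells, and Xcr1, the receptor on cross-presenting dendritic cells, both rose in both Winnie groups against C57BL/6. For Xcl1, at 2 to 49 counts per library, the edgeR log2 fold changes were 1.53 ± 0.33 (SE, adjusted p = 0.00667) and 1.24 ± 0.40 (SE, adjusted p = 0.0163). For Xcr1 they were 1.04 ± 0.34 (SE, adjusted p = 0.0333) and 1.16 ± 0.41 (SE, adjusted p = 0.0254). The Xcr1 call was held in 6 of 15 fits that left out 1 library (adjusted p = 0.0926 without Winnie replicate 1) in Winnie, and in Winnie-Prolapse it was lost without replicate 1 or replicate 7. Dendritic cell markers moved with Xcr1, 2 of 5 higher in Winnie and 4 of 5 in Winnie-Prolapse, with sums of 5.25 to 22.8 CPM in C57BL/6 mice, 12.7 to 32.5 CPM in Winnie mice and 17.8 to 39.9 CPM in Winnie-Prolapse mice, and their part was not tested. Ccl27a was the only ligand that fell. It was at 3.11 to 5.42 CPM in C57BL/6 (median 3.57), 1.31 to 5.38 CPM in Winnie (median 2.06) and 1.44 to 3.17 CPM in Winnie-Prolapse (median 1.88). In each Winnie group 6 of 7 libraries lay below all C57BL/6 libraries, and the fall passed the strict limit in Winnie-Prolapse at -0.82 ± 0.16 (SE, adjusted p = 7.40e-04) by edgeR, a call held in 3 of the 15 fits that left out 1 library. In Winnie its -0.56 ± 0.24 (SE, adjusted p = 0.0977) was not called. Cxcl15 and Cxcl17 stayed too low for a test. Their highest values, 1.29 and 6.97 CPM, were both in Winnie-Prolapse replicate 6, the library with the high mammary gland sum, whose part was not tested. Without that library the Winnie-Prolapse mean was 0.200 in place of 0.356 CPM for Cxcl15 and 0.551 in place of 1.47 CPM for Cxcl17.

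Of the lymphoid tissue chemokines, which place lymphocytes in lymphoid tissue, 4 were tested (Cxcl13, Ccl19, Ccl21a and Cxcl12). Of these none was called in Winnie and only Ccl21a in Winnie-Prolapse against C57BL/6. Cxcl13, the ligand of Cxcr5 in B cell follicles, was at 1.74 to 41.5 CPM in C57BL/6 (median 10.4), 9.58 to 30.4 CPM in Winnie (median 16.3) and 5.85 to 38.8 CPM in Winnie-Prolapse (median 23.4). C57BL/6 held both the lowest and the highest library, and the edgeR log2 fold change of 0.74 ± 0.50 (SE, adjusted p = 0.224) in Winnie-Prolapse was not called. Ccl19, which acts on Ccr7, was at 0.0635 to 3.39 CPM in C57BL/6 (median 0.336), 0.154 to 1.31 CPM in Winnie (median 0.642) and 0.226 to 1.51 CPM in Winnie-Prolapse (median 0.859), with 0.42 ± 0.69 in Winnie-Prolapse. Ccl21a, the other Ccr7 ligand, was at 18.0 to 39.0 CPM in C57BL/6 (median 30.5), 22.9 to 75.1 CPM in Winnie (median 34.4) and 38.1 to 83.3 CPM in Winnie-Prolapse (median 46.3). It rose by 0.78 ± 0.18 (SE, adjusted p = 0.00186) in Winnie-Prolapse against C57BL/6. Cxcl12, the stromal ligand of Cxcr4, was at 26.4 to 49.9 CPM in C57BL/6 (median 39.4), 26.0 to 48.9 CPM in Winnie (median 36.4) and 32.8 to 74.4 CPM in Winnie-Prolapse (median 42.1), and its 0.40 ± 0.16 (SE, adjusted p = 0.0494) by edgeR was under 1.5-fold.

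The B cell receptors Cxcr5 and Ccr6 ranged more widely within C57BL/6 than in either Winnie group. Cxcr5 was at 0.398 to 17.2 CPM in C57BL/6 (median 3.05), 0.887 to 6.10 CPM in Winnie (median 5.37) and 1.26 to 10.98 CPM in Winnie-Prolapse (median 3.33). Ccr6 was at 0.0724 to 6.40 CPM in C57BL/6 (median 1.01), 0.463 to 2.88 CPM in Winnie (median 2.16) and 0.605 to 6.01 CPM in Winnie-Prolapse (median 1.45). Neither was called in any comparison by edgeR, with 0.01 ± 0.63 and 0.43 ± 0.67 in Winnie-Prolapse against C57BL/6. Ccr7 was at 0.326 to 5.21 CPM in C57BL/6 (median 0.702), 0.925 to 4.13 CPM in Winnie (median 2.23) and 1.75 to 6.88 CPM in Winnie-Prolapse (median 2.62). It rose in Winnie-Prolapse against C57BL/6 by 1.44 ± 0.53 (SE, adjusted p = 0.0319), a call held in 8 of 15 fits that left out 1 library (adjusted p = 0.0711 without Winnie-Prolapse replicate 4). Without C57BL/6 replicate 5 the change was 2.16. Cxcr4 rose by 1.23 ± 0.42 (SE, adjusted p = 0.0423) in Winnie and 1.38 ± 0.42 (SE, adjusted p = 0.0115) in Winnie-Prolapse by edgeR, the former a call held in 5 of 15 fits that left out 1 library (adjusted p = 0.0799 without Winnie replicate 1). C57BL/6 replicate 5 had the highest C57BL/6 value for 14 of the 35 members that rose in Winnie-Prolapse, and replicate 7 the lowest for 12. B cell markers set these same libraries apart: the 6 markers summed to 239 CPM in C57BL/6 replicate 5 and 3.30 in replicate 7, and to 13.5 to 96.5 CPM in Winnie and 26.4 to 160 in Winnie-Prolapse. None of the 6 was called in any comparison, and their part in the lymphoid chemokine values was not tested.

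**Figure D4:**
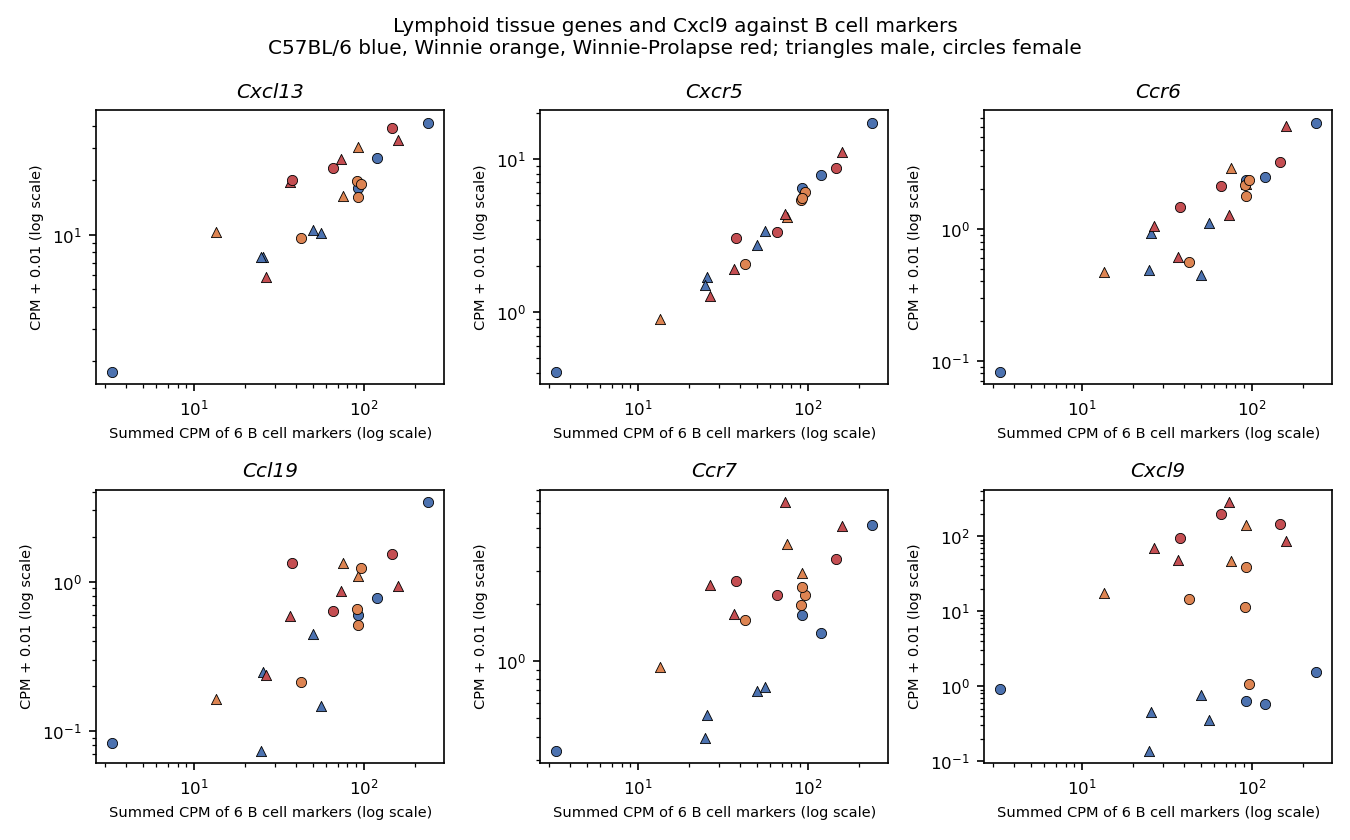
Each point is 1 of the 22 libraries, with the summed CPM of 6 B cell markers on the x axis and the CPM of Cxcl13, Cxcr5, Ccr6, Ccl19, Ccr7 or Cxcl9 on the y axis (both log scales), coloured by group. C57BL/6 replicates 5 and 7 lie at the ends of the x axis at 239 and 3.30 CPM, and Cxcl9 in every Winnie-Prolapse library lies above all C57BL/6 points, where Cxcr5 and Ccr6 overlap.

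Among the atypical receptors, Ackr4 fell in both Winnie groups against C57BL/6 and the others were higher in Winnie-Prolapse. Ackr4, a scavenger of Ccl19, Ccl21 and Ccl25, was at 3.32 to 23.3 CPM in C57BL/6 (median 7.38), 1.91 to 8.86 CPM in Winnie (median 2.18) and 1.27 to 4.18 CPM in Winnie-Prolapse (median 2.46). In Winnie 5 of 7 and in Winnie-Prolapse 6 of 7 libraries lay below all C57BL/6 libraries. It fell by 1.38 ± 0.43 on the log2 scale in Winnie (SE, adjusted p = 0.0280 by edgeR), a call lost without any 1 of Winnie replicates 1, 2, 6 and 7. In Winnie-Prolapse the log2 fold change was -1.78 ± 0.40 (SE, adjusted p = 0.00165). Smooth muscle markers, given above, fell in the same groups, and their part was not tested. Antisense Acad11, at a mean of 100.0 CPM, shares 8.90% of the Ackr4 exons.

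Ackr2, which clears inflammatory CC chemokines, was at 0.656 to 3.08 CPM in C57BL/6 (median 1.04), 0.633 to 5.22 CPM in Winnie (median 1.22) and 1.83 to 11.6 CPM in Winnie-Prolapse (median 3.20) and rose in Winnie-Prolapse by 1.81 ± 0.40 (SE, adjusted p = 0.00136). Ackr3, a scavenger of Cxcl12, was at 4.89 to 16.3 CPM in C57BL/6 (median 8.18), 7.02 to 15.6 CPM in Winnie (median 8.31) and 7.52 to 29.5 CPM in Winnie-Prolapse (median 15.7) and rose by 0.96 ± 0.28 (SE, adjusted p = 0.00984). Ackr1, the venular receptor that carries chemokines across endothelium, was at 1.92 to 3.59 CPM in C57BL/6 (median 2.67), 1.47 to 4.86 CPM in Winnie (median 1.82) and 1.54 to 10.7 CPM in Winnie-Prolapse (median 4.72). It rose by 0.95 ± 0.30 (SE, adjusted p = 0.0163), and shares 25.7% of its exons with Cadm3 on the same strand. None of these 3 was called in Winnie against C57BL/6 or between the Winnie groups by edgeR. Endothelial markers were higher in 0 of 6 in Winnie and 3 of 6 in Winnie-Prolapse (59.3 to 103 CPM in C57BL/6 mice, 39.8 to 155 CPM in Winnie mice and 81.4 to 253 CPM in Winnie-Prolapse mice), and fibroblast markers in 0 of 5 (2 lower) and 3 of 5 (507 to 745 CPM in C57BL/6 mice, 337 to 1027 CPM in Winnie mice and 414 to 1500.1 CPM in Winnie-Prolapse mice). Their part was not tested.

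**Figure D5:**
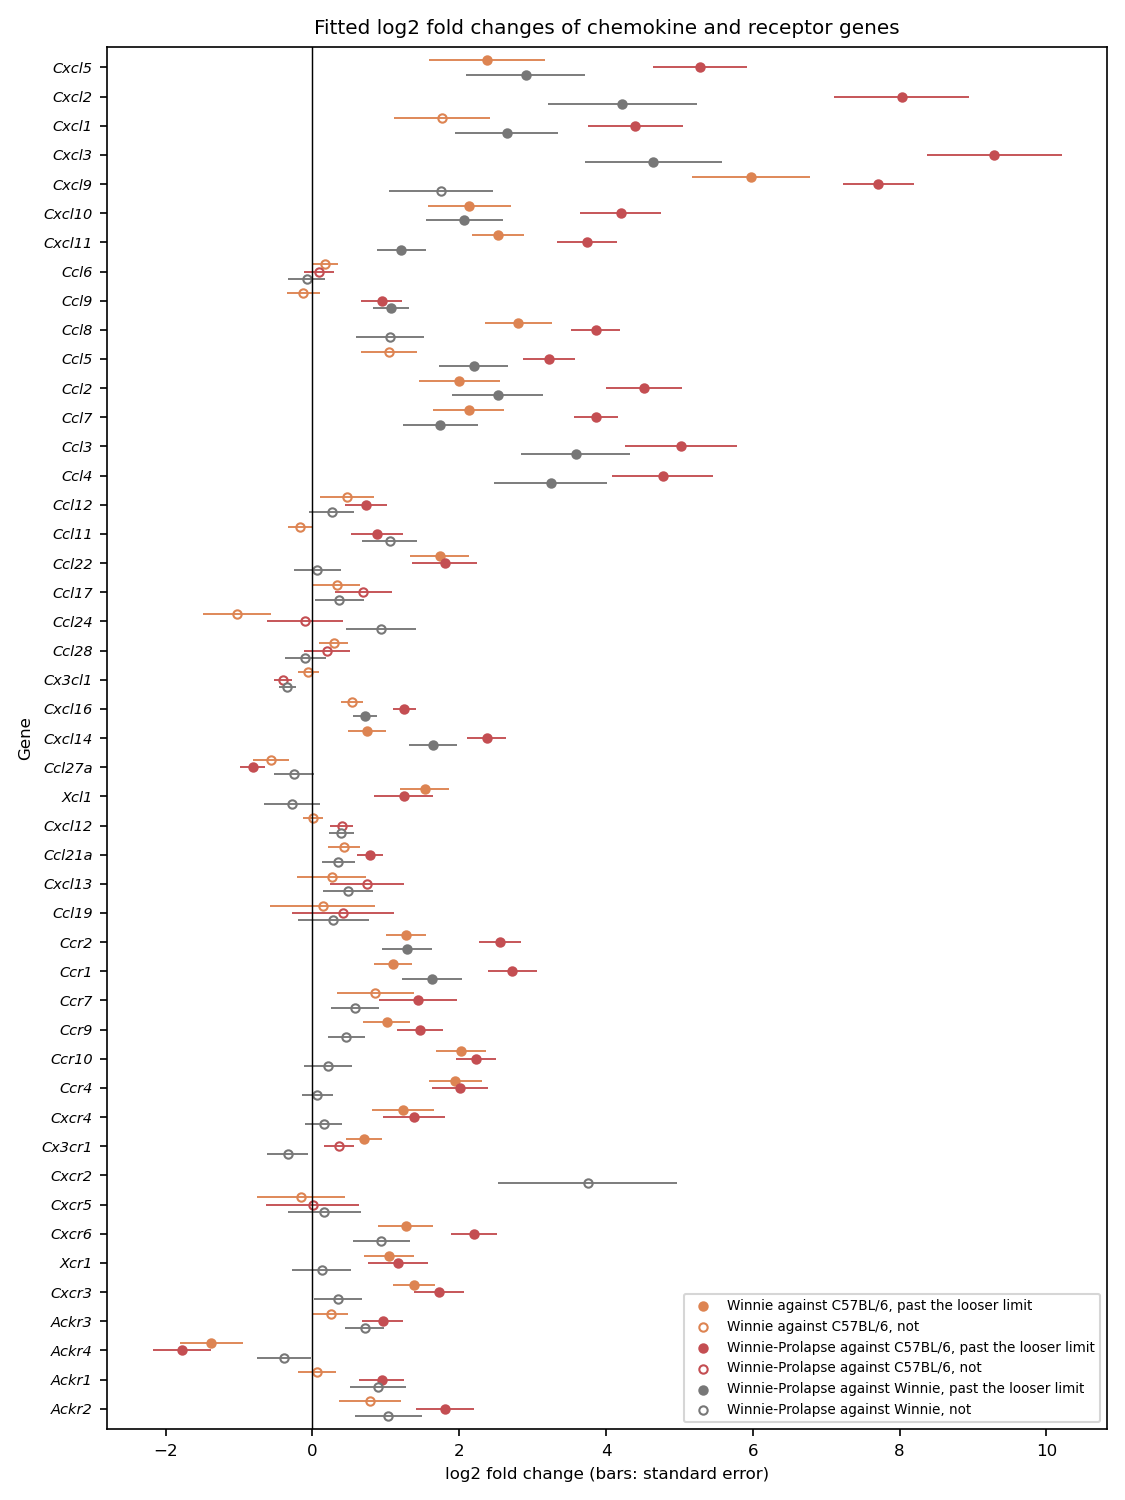
Log2 fold change with its standard error for 47 of the 51 tested members, those named or called, in the 3 comparisons, filled where the looser limit was passed (adjusted p under 0.05 and at least 1.5-fold by edgeR). Values reach 9.29 for Cxcl3 in Winnie-Prolapse against C57BL/6, and Ccl27a and Ackr4 are the members that fell in that comparison.

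Of the 35 that rose in Winnie-Prolapse against C57BL/6, the Winnie median lay between those of the other groups for 28, the exceptions being Cxcr4, Xcl1, Ackr1, Ccl11, Ccl12, Ccl9 and Xcr1. The same order held for 81.5% of all 2902 genes that rose in that comparison, so the share of members (28 of 35) is near that of all genes. The 17 that rose between the Winnie groups included 14 ligands, Ccr1 and Ccr2. Of the 17, 6 rose in each of the 14 fits that left out 1 library (Cxcl16, Ccl5, Ccl9, Ccl3, Cxcl14 and Cxcl3). Of these, Ccl3 and Cxcl3 entered the test only through Winnie-Prolapse, where they are high, so their calls were bound up with the filter. Against C57BL/6, 20 of the 22 members past the strict limit in Winnie-Prolapse held that call in each of 15 such fits (all but Ccr4 and Cxcr3). At the looser limit 31 of 35 held theirs (all but Ccl11, Ccl12, Ccr7 and Xcr1). Both the 20 and the 31 include Ccl3, Ccl4, Cxcl2 and Cxcl3, to which the same limit of the filter applies. In Winnie 14 of the 21 that rose did so in each fit, the others being Cxcr4, Cxcl14, Cxcl5, Cx3cr1, Ccr9, Cxcr6 and Xcr1.

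Genes upstream and downstream of chemokines were counted over whole lists, and the genes named from them were chosen after their values were seen. Over all genes tested, 7.42% rose in Winnie, 16.7% in Winnie-Prolapse against C57BL/6 and 4.27% between the Winnie groups. Among 20 cytokines and transcription factors that induce chemokines, 4 of 12 tested rose in Winnie, 8 of 14 in Winnie-Prolapse against C57BL/6, and 4 of 16 between the Winnie groups. Il1b, which drives Cxcl1 and Cxcl2, rose by 3.77 ± 0.66 and 6.93 ± 0.60 on the log2 scale, and Tnf by 3.13 ± 0.52 in Winnie-Prolapse. Ifng, the inducer of Cxcl9, had too few counts for a test in Winnie against C57BL/6. It and Il1a entered the test only through Winnie-Prolapse, where they are high and are 2 of the 8, and the Ifng value there was 8.42 ± 0.68. Its downstream factor Irf1 rose in both Winnie groups, by 1.09 ± 0.22 and 1.38 ± 0.13. Relb, an NF-kappaB subunit, was the 1 gene of the list that fell, by 0.66 ± 0.15 in Winnie-Prolapse. Il17a was not tested against C57BL/6 for lack of counts, nor Il17f, Il22, Il4 and Il13 in any comparison.

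Among 30 signalling genes downstream of chemokine receptors, 4 rose in Winnie, 14 rose and 1 fell in Winnie-Prolapse against C57BL/6, and 1 rose between the Winnie groups, the last a share no larger than that of all genes. The exchange factor Prex1 rose in all 3 comparisons, by 1.04 ± 0.29, 2.11 ± 0.24 and 1.08 ± 0.26, and the Src kinases Fgr (2.31 ± 0.35) and Lyn (1.58 ± 0.15) in Winnie-Prolapse. The G protein subunits Gnai2 and Gnai3 stayed under 1.5-fold at 0.46 ± 0.11 and 0.45 ± 0.09. Rgs1, which ends G protein signalling and is high in B cells, fell by 1.18 ± 0.32. Of 15 other attractants and their receptors, 2 of 12 tested rose in Winnie, 10 of 15 rose and 1 fell in Winnie-Prolapse against C57BL/6, and 3 rose between the Winnie groups. Fpr1, Fpr2 and Ppbp entered the test only through Winnie-Prolapse. The 10 included the formyl peptide receptors Fpr1 (7.36 ± 0.82) and Fpr2 (6.36 ± 0.70) and the leukotriene receptor Ltb4r1 (2.39 ± 0.31), while chemerin, Rarres2, fell by 0.71 ± 0.20. Of 9 lymphoid tissue organisers, 1, 4 and 3 rose in the 3 comparisons, Madcam1 and Bst1 among them, and Lta, Ltb and Cr2 were not called. The 1 of 9 in Winnie is close to the share over all genes.

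Values were also compared by sex. In Winnie the male mean exceeded the female mean for 20 of the 21 members that rose against C57BL/6, compared with 7 of 21 in C57BL/6 and 11 of 21 in Winnie-Prolapse. Over all 1282 genes that rose in Winnie the shares were 91.7%, 44.9% and 41.6% in the same order, so the count in Winnie is near that of all genes. The 21 were chosen on the same Winnie libraries, among which the male replicates 1 and 2 were highest for 9 and 8 of them and the female replicate 5 was lowest for 16. With males alone, 31 of 50 tested members rose in Winnie against C57BL/6 (11.8% of all genes) and none between the Winnie groups (0% of all genes). With females alone, none rose in Winnie (0.00579% of all genes) and 26 of 51 rose between the Winnie groups (8.09% of all genes). Tested directly, the sex by group interaction was called for 0 of 55 members and 0% of all genes by edgeR at adjusted p under 0.05. The smallest adjusted p was 0.275 and 15 of the 55 had an unadjusted p under 0.05. The share of all genes under that unadjusted limit is not given here, so no result about the members is drawn from the 15. The likelihood ratio test of DESeq2 called 1 member and 0.851% of all genes.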

How the data were processed

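RNA from distal colon was extracted with TRIzol and RNeasy columns, poly-A selected and made into stranded MGIEasy libraries. The authors aligned reads to GRCm38 with STAR and counted them per gene with featureCounts, within the RNAsik pipeline. The versions of STAR and featureCounts, the annotation release, strand setting and treatment of reads that match several places are not given in the sources used here, and the submitters' notes also name limma. The deposited values are raw counts per gene for 22 libraries, with no column outside the series.

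From the counts, 46078 rows were read and genes with low counts were removed by edgeR's filterByExpr. Each pair of groups was fitted on its own 2 groups with TMM factors and the quasi-likelihood test of edgeR 4.0.16 in R 4.3.3, with Benjamini-Hochberg adjustment over all genes tested. Standard errors are the log2 fold change divided by the root of the F statistic. CPM were counts divided by library totals times 1000000, and CPM per kilobase used the exon length of GENCODE M21, which matched all 65 rows. The sex by group interaction used all 22 libraries. DESeq2 1.42.0 and limma-voom (limma 3.58.1), other filters, 1 fit of all groups, library sizes without TMM factors, each sex alone, sex as a covariate and fits without each library were alternatives. Tables and figures used Python 3.11.15, numpy 2.4.6, pandas 2.3.3, scipy 1.17.1 and matplotlib 3.10.9. The tests were tested on simulated data.

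The labels give 7 Winnie libraries, more than the Winnie mice counted in the methods of the study, and all 7 were used. Replicate numbers are accession order within a group and each library is taken as 1 mouse. Libraries of a group differed beyond counting noise (lowest chi-square per degree of freedom 28.8), so none was counted as a duplicate. Depth was 24817527 to 36344372 counts, and intervals and the floor of 3 counts cover counting error only. The members and lists were chosen with earlier results of these data known. Named members were those called at the strict limit in Winnie, those that fell, and in each role the 4 with the highest mean CPM and the 2 with the largest change in Winnie-Prolapse, with the receptors of those ligands. Other members named were chosen after their values were seen. Counts cover all members and list genes, of which some are not reported here by name.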

Additional observations from a re-analysis of the deposited data

Results flagged for a closer look

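For each tested member and group, the lowest or highest library was compared with the gap that Dixon's test allows at the 95% level on log2(CPM + 0.1). Of 153 groups of values, 17 held a library that stood apart, where chance gives about 1 in 20, or 7.65. No explanation was tested for any of them.

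In C57BL/6 replicate 7, 4 ligands stood low. There Ccl20 was at 0.580 CPM where the others of the group lay at 2.83 to 8.45 CPM. Ccl28 was at 70.1 CPM where the others of the group lay at 158 to 289 CPM. Cxcl16 was at 15.0 CPM where the others of the group lay at 22.9 to 31.3 CPM. Cxcl5 was at 0 CPM where the others of the group lay at 0.904 to 3.87 CPM. Replicate 7 also had the lowest C57BL/6 sums of B cell markers, 3.30 CPM, and neutrophil markers, 4.38 CPM. Its sums of colon epithelial (22216 CPM), smooth muscle (10503 CPM) and squamous markers (47.4 CPM) were the highest of the group.

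In Winnie replicate 5, Ccl8 was at 1.15 CPM where the others of the group lay at 6.72 to 23.9 CPM. Cxcl10 was at 1.15 CPM where the others of the group lay at 9.58 to 22.7 CPM in that library. Ccr10 was at 0.623 CPM where the others of the group lay at 1.67 to 3.37 CPM. In Winnie replicate 3, Ccl6 was at 129 CPM where the others of the group lay at 209.6 to 301 CPM.

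In Winnie-Prolapse replicate 4, Ccl21a was at 83.3 CPM where the others of the group lay at 38.1 to 51.2 CPM, and Ackr2 was at 11.6 CPM where the others of the group lay at 1.83 to 3.52 CPM. In Winnie-Prolapse replicate 2, Cxcl13 was at 5.85 CPM where the others of the group lay at 19.6 to 38.8 CPM. In replicate 6, Cx3cl1 was at 91.99 CPM where the others of the group lay at 119 to 139.6 CPM, in a library where milk protein transcripts summed to 189809 CPM. Those transcripts are part of the library total and so lower the CPM of every other gene in it. The gap was not computed without them. In replicate 7, Cxcr6 was at 6.66 CPM where the others of the group lay at 2.39 to 3.05 CPM.

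Single values stood apart in other C57BL/6 libraries. In replicate 3, Xcl1 was at 0.0635 CPM where the others of the group lay at 0.325 to 0.590 CPM, and Ackr2 was at 3.08 CPM where the others of the group lay at 0.656 to 1.30 CPM. In replicate 4, Ccl27a was at 5.42 CPM where the others of the group lay at 3.11 to 4.01 CPM. In replicate 5, Ccr4 was at 0.463 CPM where the others of the group lay at 0.0635 to 0.181 CPM.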

How the results depend on the processing

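No paired analysis was possible because replicate numbers are accession order and the labels pair no mice across groups. No value of a member changed direction where it was called: of 3428 values of single members under the alternatives, 3051 kept their side of the limit, 267 no longer passed, 49 newly passed, 61 moved and 0 reversed. In Winnie against C57BL/6 the 0 members higher at the strict limit became 14 with DESeq2, 2 with no filter on low counts, 6 with all 3 groups in 1 fit and 2 with males alone, and 0 to 7 without 1 library. Of all genes 3.98%, 0.219%, 0.979%, 0.637% and 0% to 2.50% were higher in the same order. At the looser limit the 21 higher became 10 when every library needed at least 10 counts, 0 with females alone and 14 to 24 without 1 library, lowest without Winnie replicate 1 or 2. Of all genes 5.92%, 0.00579% and 5.67% to 9.19% were higher in the same order. The 1 lower became 2 with limma-voom or males alone, 0 with females alone and 0 to 2 without 1 library.

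In Winnie-Prolapse against C57BL/6 the 22 higher at the strict limit became 12 with at least 10 counts in every library, 5 with males alone, 10 with females alone and 20 to 25 without 1 library. Of all genes 9.44% were higher with that filter, 1.43% with males alone and 1.28% with females alone. The shares without 1 library are not given here. The 1 lower became 2 with DESeq2 or without TMM factors, 0 with no filter, with all 3 groups in 1 fit, with males alone or with females alone, and 0 to 1 without 1 library. At the looser limit the 35 higher became 20 with at least 10 counts in every library, where 15.3% of all genes were higher, and 32 to 35 without 1 library. In Winnie-Prolapse against Winnie the 0 at the strict limit became 12 with DESeq2, and the 17 higher at the looser limit became 11 with at least 10 counts in every library, 0 with males alone, 26 with females alone and 6 to 20 without 1 library (6 without Winnie-Prolapse replicate 4, 9 without Winnie replicate 5). Shares over all genes for this comparison are given above for DESeq2 and each sex alone, and are not given for its other settings. The interaction of sex and group gave 1 member by the likelihood ratio test of DESeq2. The filter of 10 counts removes members that are near 0 in C57BL/6, and single-sex fits hold fewer mice. The cause of the other shifts was not tested.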

Other observations

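Some members were too low for a test in any comparison. Cxcl17, a mucosal chemokine, was at 0 to 0.118 CPM in C57BL/6 (median 0.0502), 0 to 0.518 in Winnie (median 0.167) and 0.0647 to 6.97 in Winnie-Prolapse (median 0.264), where replicate 6 held 173 of 267 counts. Cxcl15, also called lungkine, had 1 count over all C57BL/6 libraries and 65 over all Winnie-Prolapse libraries, a ratio of 70.0 after scaling to library totals (95% counting interval 12.1 to 2807), with 32 of the 65 in replicate 6, the library with 189809 CPM of milk protein transcripts, and 31 in replicate 7. Cxcr1, the other receptor for neutrophil-attracting ligands, had 1 and 61 counts in the same groups (ratio 65.7, 95% counting interval 11.4 to 2637). Ccr8 was at 0.0331 to 0.231 CPM in C57BL/6, 0.067 to 0.481 in Winnie and 0.0970 to 0.736 in Winnie-Prolapse, with overlap between all groups.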
